A study of Mus musculus with 8 samples.

Results

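The miR-101 family was followed in small RNA libraries of isolated mouse cardiomyocytes as 3 related miRNAs, miR-101a, miR-101b and miR-101c, each annotated to a hairpin of its own. The members were taken by name. Of the 5 listed names, mmu-miR-101a-3p, mmu-miR-101a-5p, mmu-miR-101b-3p and mmu-miR-101c were found among the 697 mature miRNAs of the count tables, 4 in all, and mmu-miR-101b-5p was not analysed here. The family was chosen by its fold changes between the surgery groups, whose values were already known, so the differences between groups are given below as descriptions, and where the calls of the fit over all miRNAs are printed for members, nothing is read from them. The 8 libraries come from male mice of 1 series, 4 of them sham-operated and 4 with transverse aortic constriction (TAC), a narrowing of the aortic arch that loads the left ventricle with pressure and leads to heart failure. Surgery was done at 2 months of age, and cardiomyocytes were isolated by Langendorff perfusion of hearts. The 14 weeks of the study are read here as time after surgery, as given for its echocardiography. Its methods also call the mice of the isolation 14 weeks old, so the age at isolation is unclear. Part of the cardiomyocytes of 1 heart went into each sample, no transgene is named for either group, ketamine and xylazine are named as the anaesthetic of the operation, and the strain is not given in the sources used here. The miRNA counts summed to 4005668 to 5392576 per sham library and 5507169 to 7798943 per TAC library. TAC library 4 stood apart from the other TAC libraries in epithelial miRNAs (1406 CPM summed, in counts per 1000000 miRNA counts, beside 223 to 328 CPM), so the main values of the family are also given without it.

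A miRNA hairpin is cut by Dicer into a short duplex of which one strand, the guide, is kept in an Argonaute protein and directs it to messenger RNAs, while the other strand, the passenger, is mostly degraded. The seed, the bases near the 5′ end of the guide, largely decides which messages are bound. In miR-101a and miR-101b the 3p arm is the guide, and its best studied target is Ezh2, the histone methyltransferase of Polycomb repressive complex 2. In the heart miR-101 is known mainly from cardiac fibroblasts, where it restrains fibrosis and targets Fos.

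The mature sequences are shown because the members differ in where they start, and so in their seeds. They are those of RefSeq on GRCm38.p6, written 5′ to 3′, with bases 2 to 8, the seed, in capitals.
mmu-miR-101a-3p: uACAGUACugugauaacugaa
mmu-miR-101b-3p: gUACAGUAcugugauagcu
mmu-miR-101c: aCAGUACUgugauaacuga
mmu-miR-101a-5p: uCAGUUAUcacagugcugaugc
mmu-miR-101b-5p: uCGGUUAUcaugguaccgaugcu

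miR-101b-3p started 1 base further upstream than miR-101a-3p, and 17 of their 18 overlapping bases were equal. The single difference was A16G, with positions counted from 1 at the 5′ end of miR-101a-3p, the base of miR-101a-3p first and that of miR-101b-3p last. miR-101c started 1 base further downstream, and all of its 19 bases lie inside miR-101a-3p. Its sequence was found in both the Mir101a and the Mir101c hairpin, so a tag counted as miR-101c cannot be told apart from a miR-101a-3p that lost bases at its ends. No seed of 7 bases is shared exactly between these 3 entries, although each holds the run CAGUA within its first 8 bases. Of the 697 miRNAs, 593 had a RefSeq sequence. Among them miR-144-3p, an erythroid miRNA, was the only miRNA outside the family that shared bases 2 to 7 of miR-101a-3p, which are in capitals here.
miR-144-3p: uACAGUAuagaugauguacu

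The 3 hairpins lie on different chromosomes of GRCm38. Mir101a is at chr4:101346945-101347027 on the minus strand, inside an exon of the long intergenic RNA gene E130102H24Rik. The guide miR-101a-3p takes chr4:101346957-101346977 and the passenger miR-101a-5p chr4:101346993-101347014. Mir101b is at chr19:29135279-29135375 on the plus strand, in an intron of Rcl1, a gene of ribosomal RNA processing, and miR-101b-3p takes chr19:29135338-29135356. Mir101c is at chr9:3038669-3038743 on the minus strand, overlaps no annotated gene, and has Gm10715 as its nearest gene at 353 bases.

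mmu-miR-101a-3p was by far the most abundant member, and it was counted 13298, 14956, 14075 and 9844 times in sham libraries 1 to 4 and 9130, 11425, 9275 and 9605 times in TAC libraries 1 to 4. miR-101b-3p was counted 549, 522, 691 and 444 times in sham and 546, 553, 522 and 348 times in TAC. Both guides were thus well counted in each library, whereas the other members were rare. The passenger miR-101a-5p was counted 7, 14, 13 and 11 times in sham and 21, 24, 18 and 25 times in TAC. miR-101c was counted 5, 13, 7 and 5 times in sham and 5, 1, 3 and 3 times in TAC. A mature miRNA gives 1 tag per molecule whatever its length, so counts of different miRNAs were compared directly, although ligation and amplification differ between sequences.

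Within each library, the guide of miR-101a exceeded that of miR-101b by a factor of 20.4 to 28.7 in sham and 16.7 to 27.6 in TAC. The mean log2 ratio was 4.45 ± 0.28 (SD, n = 8 libraries), a 21.9-fold excess, with the same direction in 8 of 8 libraries (two-sided exact sign-flip permutation test, p = 0.00781, the smallest that 8 libraries allow; Benjamini-Hochberg adjusted p = 0.00781 over the 2 level ratios tested). The TAC-minus-sham difference of the ratio was -0.22 on the log2 scale, and the libraries of the groups overlapped. The TAC-minus-sham difference became -0.37 without TAC library 4, and -0.13 without TAC library 1 or without sham library 2. miR-101a-3p made up 94.1% to 96.46% of the tags of the family in each library. By mean CPM, miR-101a-3p stood at place 41 of the miRNAs in sham and 48 in TAC, and miR-101b-3p at 129 and 137. miR-101a-5p stood at 384 and 334, and miR-101c at 428 and 513. In sham the 2 rarest members were not separated by counting error, since their 95% Poisson intervals overlapped in each of the 4 libraries. In TAC the intervals of miR-101a-5p lay above those of miR-101c in each of the 4 libraries, and miR-101a-5p had the higher count in 8 of 8 libraries.

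Divided by library total, the level of miR-101a-3p was 2873, 2773, 2868 and 2458 CPM in sham libraries 1 to 4 and 1658, 1465, 1463 and 1330 CPM in TAC libraries 1 to 4. No TAC library reached the lowest sham library, and the means were 2743 ± 196 and 1479 ± 135 CPM (SD, n = 4 each). The study, however, used miR-19b-3p and miR-126a-3p for normalisation, a choice it based on QPCR, which is not analysed here. Both of these lay below the sham range in every TAC library when divided by library total. miR-126a-3p was at 39017 ± 10588 CPM in sham and 22483 ± 1313 CPM in TAC, and miR-19b-3p at 213 ± 36.4 and 107 ± 21.4 CPM (SD, n = 4 each). Scaling by these 2 miRNAs sets the TAC library sizes to 0.537 of their totals, and the TAC levels of miR-101a-3p then became 3088, 2729, 2725 and 2477 CPM, mean 2755 ± 252 (SD, n = 4), which overlapped with sham. So miR-101a-3p and the reference miRNAs were lower in TAC by nearly the same factor: its mean log2 ratio to miR-126a-3p was -3.79 in sham and -3.93 in TAC, and that to miR-19b-3p 3.70 and 3.81, with overlapping libraries for both. Which scaling is nearer to the amount of each miRNA per cell was not tested with the counts.

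miR-101b-3p lay at 119, 96.8, 141 and 111 CPM by library total in sham libraries 1 to 4 and at 99.1, 70.9, 82.3 and 48.2 CPM in TAC libraries 1 to 4. The means were 117 ± 18.4 and 75.1 ± 21.4 CPM (SD, n = 4 each), and TAC library 1 reached into the sham range. With the reference scaling, the TAC values were 185, 132, 153 and 89.7 CPM, mean 140 ± 39.8 (SD, n = 4), so that the order of the group means turned with the scaling.

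By library totals and with TMM, the passenger arm had the opposite order of group means to the guides, while with the reference scaling all 3 group means were higher in TAC, that of miR-101a-3p by little. By library total, miR-101a-5p was at 1.51, 2.60, 2.65 and 2.75 CPM in sham libraries 1 to 4 and at 3.81, 3.08, 2.84 and 3.46 CPM in TAC libraries 1 to 4. All 4 TAC libraries exceeded all 4 sham libraries, with means of 2.38 ± 0.579 and 3.30 ± 0.429 CPM (SD, n = 4 each), and this held with the reference scaling, where the TAC mean was 6.14 ± 0.799 CPM, and with TMM scaling, where the means were 2.22 ± 0.583 and 3.55 ± 0.501 CPM. The gap between the highest sham library and the lowest TAC library was only 2.75 against 2.84 CPM by library total, and these rest on 11 and 18 counts. miR-101c went the other way, at 1.08, 2.41, 1.43 and 1.25 CPM in sham and 0.908, 0.128, 0.473 and 0.415 CPM in TAC. Its TAC libraries lay below the sham libraries by library total (1.54 ± 0.597 and 0.481 ± 0.322 CPM, SD, n = 4 each) and overlapped with them with the reference scaling (0.896 ± 0.600 CPM in TAC). A count of 3 amounts to 0.385 to 0.545 CPM in the TAC libraries, so miR-101c was near the counting floor there.

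**Figure D1:**
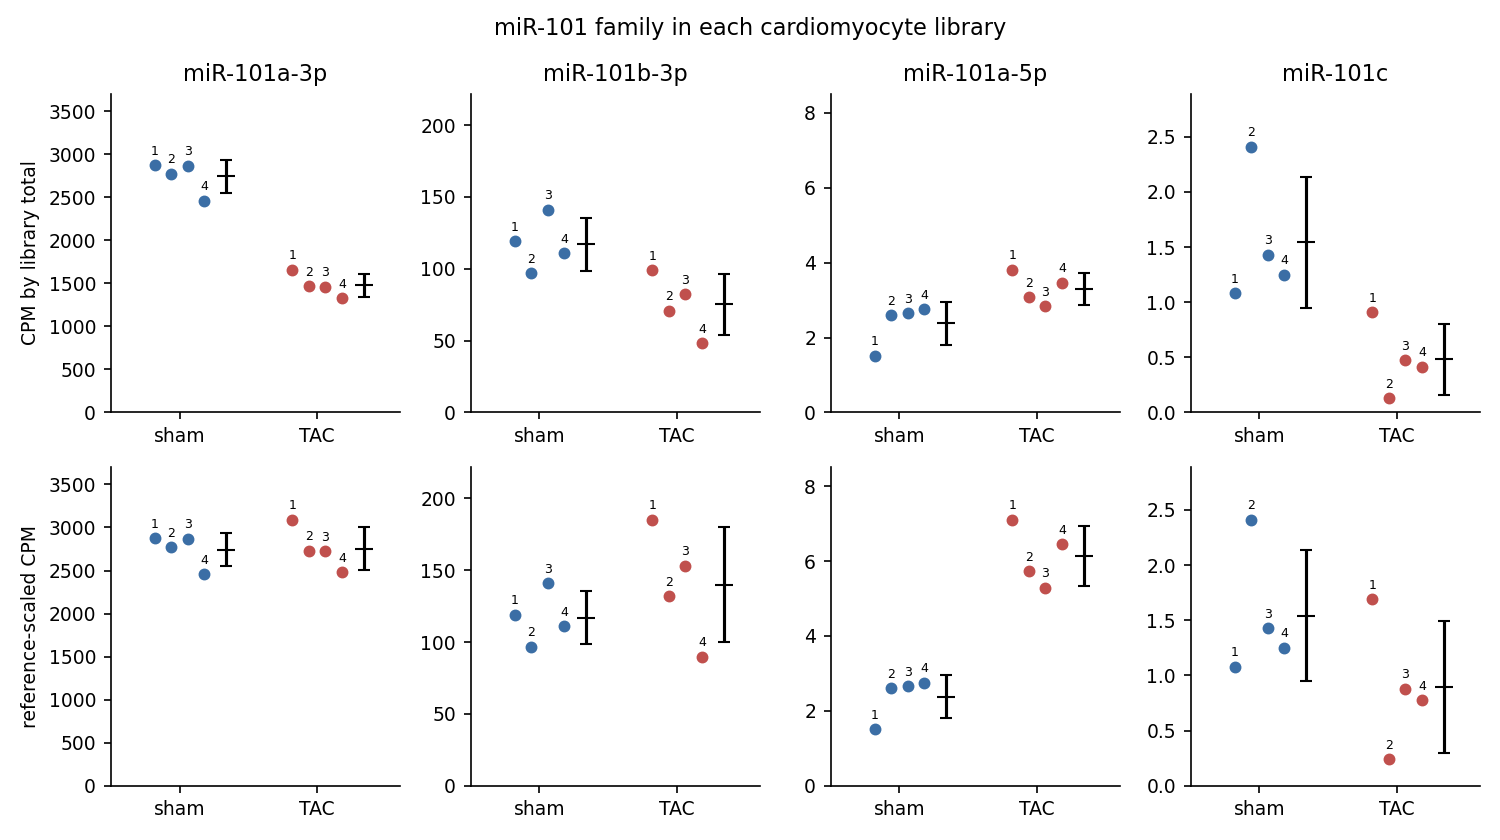
Level of each miR-101 member in the 4 sham (blue) and 4 TAC (red) libraries, in CPM by library total (upper row) and in reference-scaled CPM (lower row), on linear axes from 0. Numbers are library numbers, and black bars are the mean and SD (n = 4). The 4 TAC points of miR-101a-3p, 1330 to 1658 CPM, lie below sham in the upper row and overlap with sham in the lower row, where TAC library 1 at 3088 CPM is the highest of all, while those of miR-101a-5p lie above sham in both.

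As log2 fold changes from edgeR, TAC over sham, miR-101a-3p was at 0.0061 (SE 0.11) with the reference scaling, -0.68 (SE 0.11) with TMM and -0.89 (SE 0.12) by library totals. miR-101b-3p was at 0.26 (SE 0.22), -0.43 (SE 0.23) and -0.64 (SE 0.22) under the same 3 scalings. Both guides thus changed their sign or lost their difference with the scaling. Counted from the lowest fold change among the 223 miRNAs with a mean above 100 counts, miR-101a-3p was at place 24 and miR-101b-3p at place 44 under each of the 3. A change of scaling shifts the fold changes of all miRNAs nearly alike, so equal places and equal distances to the median follow from its construction and are no sign of stability. The median of all 223 was 0.61 with the reference scaling, -0.082 with TMM and -0.29 by library totals, and miR-101a-3p lay 0.60 below it. The low members were fitted among the 695 miRNAs with any count. There miR-101a-5p was at 1.36 (SE 0.36), 0.81 (SE 0.36) and 0.47 (SE 0.36), above 0 under each scaling and about 0.75 above the median of these miRNAs. miR-101c was at -0.83 (SE 0.65), -1.36 (SE 0.63) and -1.71 (SE 0.63). Without TAC library 4, the values with the reference scaling were 0.11 for miR-101a-3p, 0.48 for miR-101b-3p, 1.39 for miR-101a-5p and -0.74 for miR-101c.

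**Figure D2:**
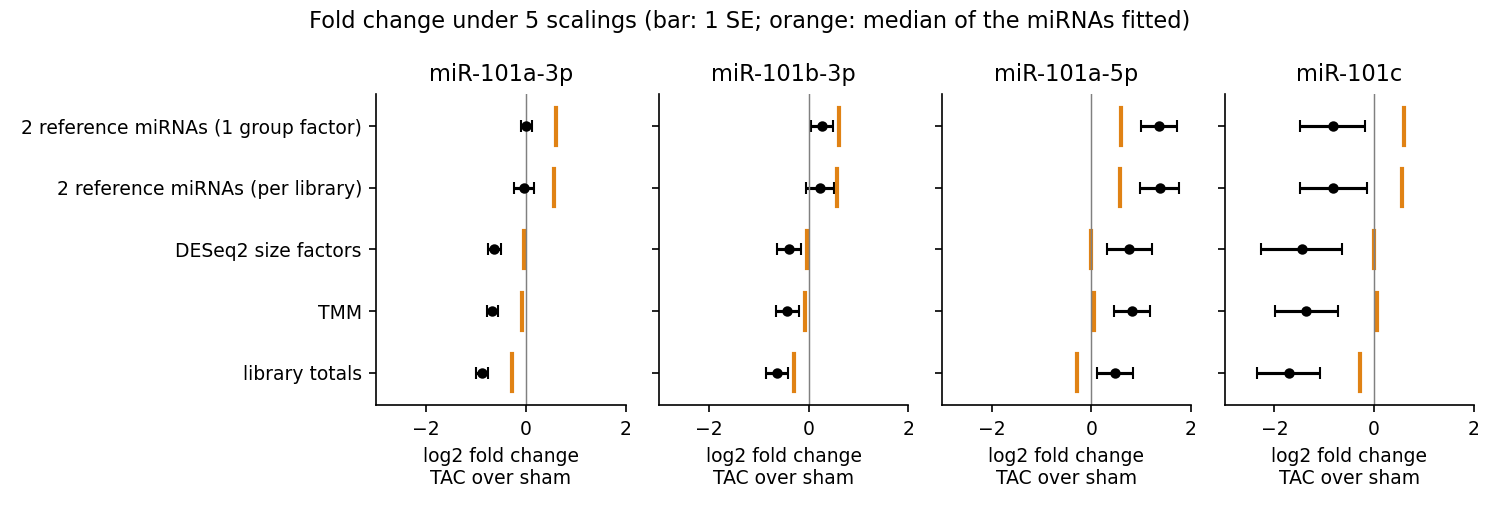
log2 fold change, TAC over sham, of each member (dot, with 1 SE) under 5 scalings of the libraries, with the median of all miRNAs fitted under the same scaling (orange). The horizontal axes are shared in range. miR-101a-3p moves from 0.0061 to -0.89 down the panel while the median moves with it, and miR-101a-5p is the member to the right of 0 under all 5.

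A miRNA was called changed where its fold change exceeded 1.7 and its Benjamini-Hochberg adjusted p was under 0.05. With the reference scaling, neither guide was called, where 36.8% of the 223 miRNAs were called higher and 0.897% lower. miR-101a-5p was called higher among the 695 miRNAs, of which 18.3% were called higher and 0.288% lower, and miR-101c was not called. By library totals, miR-101a-3p was called lower and miR-101b-3p was not called, beside 10.3% of the 223 miRNAs called lower and 0.448% called higher. Neither of the low members was called by library totals, beside 4.32% of the 695 miRNAs called lower and 0.144% higher. With TMM no member was called, beside 4.48% lower and 1.35% higher of the 223 and 0.576% lower and 0.863% higher of the 695. Since the members were taken up with this comparison known, nothing is read from these calls. The same holds for the groups that did not overlap. By library totals, miR-101a-3p was below sham in all TAC libraries beside 27.4% of the 223 miRNAs, with 3.59% above. Of the 695 miRNAs, 12.9% were below in all TAC libraries, as miR-101c was, and 2.01% above, as miR-101a-5p was. With TMM these shares were 12.6% below and 8.52% above among the 223, and 6.91% below and 4.32% above among the 695, where the groups did not overlap for the same 3 members. With the reference scaling they were 0.448% below and 54.7% above among the 223, where the groups overlapped for both guides, and 0.288% below and 25.5% above among the 695, where miR-101a-5p was above.

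Because both arms of miR-101a are cut from the same hairpin and counted in the same library, their ratio does not depend on the scaling. The guide outnumbered the passenger by 1900, 1068, 1083 and 895 times in sham libraries 1 to 4 and by 435, 476, 515 and 384 times in TAC libraries 1 to 4. The guide was the more abundant arm in 8 of 8 libraries, with a mean log2 ratio of 9.46 ± 0.79 (SD, n = 8), 705-fold (two-sided exact sign-flip permutation test, p = 0.00781, the smallest possible; adjusted p = 0.00781). With arms this unequal in count no other p could result, so nothing is read from it. The SD over the 8 libraries also holds the step between the groups. Every TAC ratio was below every sham ratio, with mean log2 ratios (± SD, n = 4 each) of 10.14 ± 0.45 and 8.78 ± 0.18. The difference of -1.36 means a 2.57-fold lower guide-to-passenger ratio in TAC, and it is given without a test. It was -1.29 without TAC library 4 and -1.15 without sham library 1, whose passenger count was the lowest. By library totals, the guide was lower and the passenger higher in TAC, so the values of the arms lay in opposite directions. With the reference scaling the guide was level and the passenger higher.

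As a share of all miR-101a tags, the passenger took 0.0526%, 0.0935%, 0.0923% and 0.112% in sham libraries 1 to 4 and 0.229%, 0.210%, 0.194% and 0.260% in TAC libraries 1 to 4. The means were 0.0875% ± 0.0249 and 0.223% ± 0.0284 (SD, n = 4 each). The 95% Wilson interval of the highest sham library, 0.0623% to 0.200%, overlapped with that of the lowest TAC library, 0.123% to 0.306%, and such intervals cover counting error only. Summed over libraries, 45 passenger tags were counted beside 52173 guide tags in sham, and 88 beside 39435 in TAC.

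The change of the arm ratio was set beside that of the 111 hairpins with both arms counted and at least 10 passenger counts on average. Arms were joined to hairpins by name, and the same tags may be counted under more than 1 name. Mean counts were nearly equal for miR-199a-3p (9185.38) and miR-199b-3p (9183.75), and for miR-486a-5p (152149.75) and miR-486b-5p (151825.62). The 111 hairpins may thus not all be independent of each other. For all of these, guide stands for the arm with the higher summed count in these libraries and passenger for the other arm, which need not be the strands kept in and lost from Argonaute, and the sign of each difference, the median and the place of miR-101a rest on this choice. The median TAC-minus-sham difference of the log2 guide-to-passenger ratio was -0.01, with quartiles at -0.32 and 0.27, and miR-101a had the lowest value. The ratio was lower in TAC in 56 of the 111 hairpins, and the median lay near 0. In 6.31% of the hairpins, 7 in number, the TAC libraries were all below the sham libraries, and in another 6.31% they were all above. Besides miR-101a these were miR-144 (-1.18), miR-10a (-0.88), miR-30a (-0.77), miR-532 (-0.65), miR-30e (-0.64) and miR-1843a (-0.57), named after their values were seen. By size alone, which does not depend on the choice of guide, miR-101a was not first, as miR-29a and let-7e changed more. Their changes were on the other side. The ratio was 1.56 higher in TAC on the log2 scale for miR-29a, with overlapping groups, and 1.40 higher for let-7e, without overlap. By library totals, the guide was lower and the passenger higher in 14 of the 111 hairpins, miR-101a among them. The guide was higher and the passenger lower in 6. Both counts rest on the same choice of guide, and exchanging the 2 names for a hairpin would move it from one count to the other. With the reference scaling, the arms lay in opposite directions in 24 of the 111 hairpins, and miR-101a was not among these. For miR-101a this rests on the sign of a guide log2 fold change of 0.0061 (SE 0.11). The guide was at -0.033 with 1 reference factor per library, -0.1 with miR-126a-3p alone and 0.11 with miR-19b-3p alone. The passenger was above 0 in each of these settings. Among the 44 hairpins with a passenger as rare as that of miR-101a, at a mean of 10 to 50 counts, 4.55% had every TAC library below sham and 6.82% had every TAC library above. The place of miR-101a was second instead of first without TAC library 1 or without TAC library 3, and also among the 124 hairpins with at least 5 passenger counts.

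The miRNAs next to miR-101a-3p in sham level differed in how they moved. Directly above it were miR-133b-3p, a muscle miRNA, at 2982 ± 330 CPM in sham and 3590 ± 553 CPM in TAC by library total, and miR-152-3p at 2803 ± 424 and 2330 ± 291 CPM (SD, n = 4 each). Directly below were miR-145a-5p, a smooth muscle miRNA, at 2664 ± 399 and 1980 ± 411 CPM, and miR-10a-5p at 2622 ± 208 and 1472 ± 270 CPM (SD, n = 4 each). In edgeR with the reference scaling, miR-133b-3p was called higher with a log2 fold change of 1.17 (adjusted p = 0.000163). miR-152-3p at 0.63 (adjusted p = 0.00418) and miR-145a-5p at 0.47 (adjusted p = 0.0373) did not reach the fold change of 1.7, and miR-10a-5p was at 0.06 (adjusted p = 0.711). By library totals they were at 0.27, -0.27, -0.43 and -0.83, so miR-10a-5p was the neighbour whose values lay closest to those of miR-101a-3p.

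Across the 8 libraries, the tested miRNAs whose log2(CPM + 1) ran most closely with that of miR-101a-3p were miR-497a-5p (Pearson r = 0.98), miR-126a-5p (0.98), miR-362-5p (0.97), miR-322-5p (0.96) and miR-503-5p (0.96), the first 5 of 222 compared. All 5 had every TAC library below every sham library by library totals, as had 27.4% of the 223 tested miRNAs, and the points share the same libraries and totals, so a large part of each r is the step between the groups. Within the groups, after removal of the group means, r was 0.77, 0.76, 0.52, 0.35 and 0.76. With the reference scaling their log2 fold changes in edgeR were 0.15 (adjusted p = 0.349), -0.12 (0.430), -0.29 (0.153), -0.03 (0.871) and -0.30 (0.268), in the same order. miR-126a-5p, an endothelial miRNA, is the partner arm of the reference miRNA miR-126a-3p, and miR-503-5p and miR-322-5p are cut from neighbouring hairpins on the X chromosome.

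miR-101b-3p came only at place 36 in likeness to miR-101a-3p, with r = 0.84, and its r after removal of the group means was 0.75, a single value over the 8 libraries that does not speak for either group alone. The reference miRNAs were at place 26 (miR-19b-3p, r = 0.87) and 43 (miR-126a-3p, r = 0.82), with values of -0.25 and 0.13 within the groups. For miR-101b-3p the most alike miRNAs were miR-140-3p (r = 0.91), miR-24-2-5p (0.90), miR-151-3p (0.90), miR-15a-5p (0.89) and miR-322-3p (0.88), and miR-101a-3p was at place 13. These r are descriptions over 8 libraries.

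**Figure D3:**
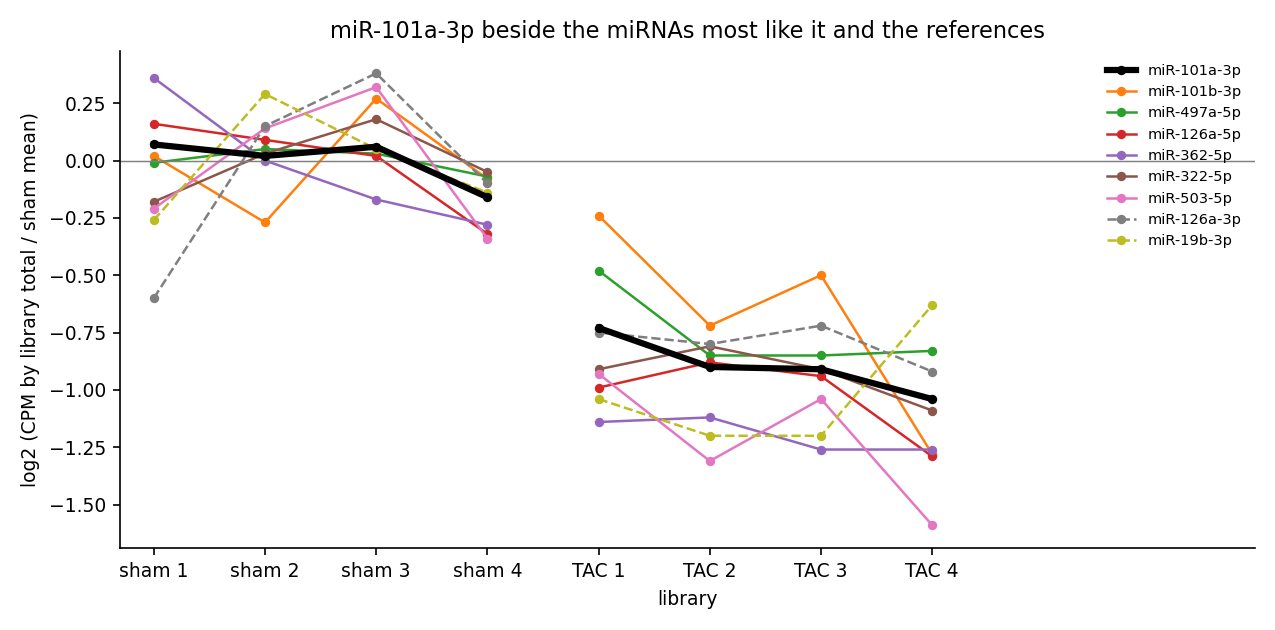
log2 of CPM by library total over the sham mean for miR-101a-3p (black), miR-101b-3p, the 5 miRNAs most like miR-101a-3p and the reference miRNAs (dashed) in each library. Lines join libraries of a group for legibility only and mark no order. miR-101a-3p stands at 0.07 to -0.16 in sham and at -0.73 to -1.04 in TAC, among its 5 most alike miRNAs, and miR-101b-3p spreads more, from -0.24 to -1.28 in TAC.

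miR-144-3p, which shares bases 2 to 7 with miR-101a-3p as shown with the sequences above, was at 691 ± 308 CPM in sham and 228 ± 174 CPM in TAC by library total (SD, n = 4 each). TAC library 1 was the lowest with 24.3 CPM, and the groups overlapped. Its log2 fold change was -0.70 with the reference scaling (SE 0.67, edgeR adjusted p = 0.372) and -1.60 by library totals. miR-101a-3p was counted more often than miR-144-3p in 8 of 8 libraries, 6.55-fold on the geometric mean.

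miR-29 and a few other miRNAs are, like miR-101, described as restraining fibrosis in the heart. Of 6 such miRNAs, all tested, 3 were called higher and none lower with the reference scaling, beside 36.8% and 0.897% of all tested miRNAs, and their median log2 fold change was 0.71 beside 0.61 for all. By library totals, none was called in either direction, beside 10.3% called lower and 0.448% called higher of all tested miRNAs, and the median was -0.19 beside -0.29. miR-29b-3p rose by 0.92 (edgeR adjusted p = 0.00105) with the reference scaling but was at 0.02 by library totals. miR-29a-3p at 0.50 (adjusted p = 0.0238) and miR-29c-3p at 0.63 (adjusted p = 0.00640) did not reach the fold change of 1.7 and were at -0.40 and -0.27 by library totals. Each of the 3 thus had a higher fold change than miR-101a-3p under both scalings, as had most of the tested miRNAs. miR-101a-3p was at place 24 from the lowest of 223 under both. The difference between these miRNAs was not tested.

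The label of the cells was read on marker miRNAs, and several markers of other cell types moved with the groups. The 5 cardiomyocyte miRNAs were all found, with miR-1a-3p as the most abundant, and summed to 160712 to 198133 CPM in sham and 194455 to 245941 CPM in TAC by library total. Of these, 4 were called higher with the reference scaling, beside 36.8% of all tested miRNAs, with a median log2 fold change of 0.93 beside 0.61 for all. By library totals none was called higher, beside 0.448%, with a median of 0.03 beside -0.29. The endothelial pair, miR-126a-3p and miR-126a-5p, summed to 49248, 65606, 72051 and 53295 CPM in sham libraries 1 to 4 and 33812, 33782, 34557 and 29274 CPM in TAC libraries 1 to 4, so every TAC library was below sham. Both were called lower by library totals, beside 10.3% of all, with a median of -0.91 beside -0.29. Neither was called with the reference scaling, beside 0.897% called lower, and the median there was -0.01 beside 0.61, as that scaling is set in part by miR-126a-3p itself. In such bulk libraries, fewer cells of a type and less RNA per cell cannot be told apart. The part of endothelial RNA in the levels of miR-101a-3p was not tested.

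The 3 erythroid miRNAs, with miR-144-3p as the most abundant, summed to 418, 918, 1503 and 1008 CPM in sham libraries 1 to 4 and 43.8, 200, 550 and 526 CPM in TAC libraries 1 to 4, and the groups overlapped. None of the 2 tested was called under either scaling. Of all tested miRNAs, 36.8% were called higher and 0.897% lower with the reference scaling, and 0.448% higher and 10.3% lower by library totals. These shares also stand beside the lists that follow, unless another is given. The erythroid median was -0.62 with the reference scaling, beside 0.61 for all, and -1.52 by library totals, beside -0.29. Of the 7 fibroblast and smooth muscle miRNAs, led by miR-143-3p, 2 were called higher with the reference scaling, a share below the 36.8% of all tested miRNAs, with a median of 0.58 near the 0.61 of all. By library totals 1 was called lower, beside 10.3% of all, with a median of -0.32 beside -0.29. Their sums lay at 43589 to 51440 CPM in sham and 38400 to 45641 CPM in TAC. Of the 6 leukocyte miRNAs, 5 were tested and 1, miR-155-5p, was called higher with the reference scaling, beside 36.8% of all, with a median of 0.33 beside 0.61, and none was called by library totals, with a median of -0.57 beside -0.29. Without TAC library 4, 2 of them were called higher, beside 40.7% of all tested then. Their sums, with miR-146a-5p as the most abundant, were 2943 to 4932 CPM in sham and 2878 to 3375 CPM in TAC. Of the 6 epithelial miRNAs, led by miR-200a-3p, 5 were tested and all 5 were called higher with the reference scaling, beside 36.8% of all, with a median of 1.83 beside 0.61, and none was called by library totals, with a median of 0.93 beside -0.29. Without TAC library 4, 4 of the 5 were called higher with the reference scaling, beside 40.7% of all 221 tested then, and the median was 0.82 beside 0.68. Their sum was 1406 CPM in TAC library 4 and 223 to 328 CPM in the other TAC libraries, beside 242 to 401 CPM in sham. No list was at 0 in any library, and its part in the miR-101 values was not tested.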

How the data were processed

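The authors deposited, for each of 4 sham and 4 TAC small RNA libraries, whole-number counts of tags per mature mouse miRNA, without normalization. Groups came from the sample titles. The submitters' processing notes name mm10 and StringTie 1.3.1 with no role; the aligner, the miRNA database and the handling of tags that fit several miRNAs are not given in the sources used here, which bears on miR-101c. Replicates are separate mice by the study's methods, and no library was a copy of another.

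Counts were fitted in R 4.3.3 with edgeR 4.0.16 (quasi-likelihood F test with group alone as term; p-values adjusted by Benjamini-Hochberg). The fit took the 223 miRNAs whose mean exceeded 100 counts, or, for miR-101a-5p and miR-101c, the 695 with any count. Library sizes were miRNA totals, multiplied in TAC by 0.537, the geometric mean TAC-to-sham ratio of the mean CPM of miR-126a-3p and miR-19b-3p. Arm ratios used a pseudocount of 0.5 for log2 values. DESeq2 1.42.0, TMM, library totals, other filters, each reference miRNA alone, 1 reference factor per library, a replicate block and leaving out each library were the alternatives. The members, the marker lists and the rule for named miRNAs (members, references, shared seeds, the 5 most alike, the nearest in level, list members) were chosen with earlier results of these data known. Loci are from GENCODE vM21.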

Additional observations from a re-analysis of the deposited data

Results flagged for a closer look

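Of 34 groups of 4 libraries checked for a library far from the others, 3 stood out, and chance alone gives about 1 in 20. For miR-101a-5p, sham library 1 lay at 1.51 CPM by library total, below the 2.60 to 2.75 CPM of the other sham libraries, with a gap of 0.878 of the whole range. It rests on 7 counts, and without this library the TAC-minus-sham difference of the miR-101a arm ratio was -1.15 in place of -1.36. The summed endothelial miRNAs were lowest in TAC library 4 at 29274 CPM (gap 0.853), and the summed epithelial miRNAs were highest in the same library at 1406 CPM (gap 0.912). miR-101a-3p and miR-101b-3p were also at their lowest there by library total, at 1330 and 48.2 CPM, and whether these values share a source was not tested.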

How the results depend on the processing

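The values of the members shifted most with the scaling. With TMM, library totals and DESeq2's own size factors, the log2 fold change was -0.68, -0.89 and -0.64 for miR-101a-3p, -0.43, -0.64 and -0.39 for miR-101b-3p, and 0.81, 0.47 and 0.76 for miR-101a-5p. miR-101c was at -1.71 by library totals, and the summed family was at -0.67 with TMM and -0.88 by library totals. Under the same 3 scalings, 3, 1 and 5 miRNAs were called higher in place of 82, 10, 23 and 9 lower in place of 2, and the median was -0.082, -0.29 and -0.036 in place of 0.61. With miR-126a-3p alone as reference the median was 0.50, with miR-19b-3p alone it was 0.71 and 1 miRNA was called lower, and without a filter 127 were called higher.

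Leaving out 1 library at a time gave 59 to 106 miRNAs called higher, 1 to 2 lower, and a median of 0.54 to 0.73. The log2 fold changes ranged from -0.071 to 0.15 (miR-101a-3p), 0.10 to 0.48 (miR-101b-3p), 1.29 to 1.46 (miR-101a-5p) and -1.29 to -0.53 (miR-101c), and the family sum from -0.061 to 0.16. The arm ratio difference ranged from -1.5 to -1.15. Its place among the hairpins ranged from 1 to 2, and was also 2 with a minimum of 5 passenger counts. The place itself, all its alternatives and the lists without TAC library 4 were chosen after seeing the data. The difference of the ratio of miR-101a-3p to miR-101b-3p ranged from -0.37 to -0.13, its mean from 4.40 to 4.51, and the mean arm ratio from 9.27 to 9.59. The cause of these shifts was not tested.

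The study's methods describe the sham and TAC mice as pairs, without saying what a pair shared, and the sample titles share only numbers. Deviations of same-numbered libraries correlated at 0.17, -0.37, 0.31 and -0.22, and those of differently numbered sham and TAC libraries at -0.19 to 0.42. With the replicate number as a block, 76 miRNAs were called higher and 3 lower, the median was 0.62, no member's call changed, and the members were at 0.0046, 0.23, 1.36 and -0.85 (miR-101a-3p, miR-101b-3p, miR-101a-5p, miR-101c). Alternatives for miR-101b-5p and its ratios were not run. Depth limits the passenger arm and miR-101c, with at most 25 counts per library.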
